A study of Saccharomyces cerevisiae with 8 samples.

Results

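The 41 genes described here encode protein subunits of the mitochondrial ribosome of Saccharomyces cerevisiae. They were taken from a list of nuclear gene identifiers with MRPL or MRPS names, 33 of the large subunit and 8 of the small subunit. The rule of choice used no measured value, though earlier results of these data were known when the genes were chosen. All 41 were in the deposited table of 11966 features and all 41 passed the filter on low values, which left 5861 nuclear protein-coding genes. The list does not hold every mitoribosomal gene, and 36 others, among them MRPL37, are compared below. The series asked which RNAs accumulate when translation elongation is blocked. Its 8 libraries were made from total RNA, keeping the strand and removing ribosomal RNA, of the haploid strain BY4741 in rich medium (YPD) at 30 °C, harvested in exponential growth (OD600 of 0.5). The WT cells had the genotype MATa his3Δ1 leu2Δ0 met15Δ0 ura3Δ0, and the upf1 cells carried upf1*::kanMX4 besides these same alleles. Each genotype received 100 µg/ml anisomycin (ANS) or an equal volume of its solvent DMSO for 30 min. This gave 4 groups of 2 biological replicates, named here by genotype and agent (WT DMSO, for example).

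The mitochondrial ribosome translates the few mRNAs of the mitochondrial genome, most of which encode core subunits of the respiratory chain and the ATP synthase. Its RNAs and the protein Var1 are made inside the organelle, while its other proteins are made on cytosolic ribosomes and imported, so that subunits of 2 genomes have to meet. ANS blocks peptide bond formation on cytosolic ribosomes. NAM7 encodes Upf1, a helicase at the centre of nonsense-mediated decay, a pathway that destroys RNAs whose translation ends early. Puf3 is a pumilio-family protein that binds the 3′ ends of many yeast mRNAs for mitochondrial proteins and is known to speed their decay in cells grown on glucose and to affect their location near mitochondria.

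Whole reads recovered from the densities numbered 6954353 to 11994371 per library, and each of the 41 genes had 91 to 1250 reads in each library, with a median of 303. NAM7 (YMR080C) had densities of 0.432 and 0.449 in WT DMSO and of 0.0113 and 0.00975 in upf1 DMSO, as the genotype labels have it. Of the a-cell markers, STE2 and BAR1 had densities of 1.96 and 1.17 in the first WT DMSO library, while both alpha-factor genes had 0 to 6 reads in every library. With STE3 added, the densities of the 3 alpha-cell markers added up to 0.00815 and 0.00812 in WT DMSO and 0.118 and 0.144 in WT ANS. Those of the 5 a-cell markers added up to 12.5 and 14.2 in WT DMSO and 66.7 and 72.2 in WT ANS. The deposited densities are reads per nucleotide on a scale that appears to rest on small nucleolar RNAs. On that scale nearly all mRNAs lie higher in ANS, by a median of 1.72 (log2) for protein-coding genes in WT and 1.43 in upf1. Densities were therefore also divided by the median ratio of protein-coding genes in each library. This relative scale moves those medians to 0.07 and -0.02, and the median of protein-coding genes in upf1 against WT in DMSO from 0.10 to -0.13. Another scale, on which each library is divided by its summed density of protein-coding genes, is set beside it for the main counts and for named genes whose direction it changes. RNA was taken from whole cultures, so that fewer cells with a transcript and less of it per cell cannot be told apart.

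All 41 genes share a sequence that the choice of genes did not use. The motif TGTANATA, the core of the Puf3 binding site, lay on the coding strand within 300 bases after the stop codon of 41 of 41 genes. Among 5948 protein-coding genes with such a window 969 had it (16.3%), and among 138 cytosolic ribosomal protein genes 12 (8.70%). On the other strand of the same windows it lay in 9 of the 41 genes (22.0%) and in 15.9% of all genes. The 41 genes held 53 matches, of which 22 read TGTAAATA, 17 TGTATATA, 13 TGTACATA and 1 TGTAGATA. A single match stood in 30 genes, 2 in 10 genes and 3 in MRPL19 alone. A cytosine stood 2 bases before 34 of the 53 matches (64.2%), against 251 of 1006 matches outside the 41 genes. The first match began 8 to 139 bases after the stop codon, with a median of 55. The windows are fixed in length and transcript ends were not used, so a match is a description of the sequence and not a bound site. Matches are printed for the 5 genes that stood highest and the 5 that stood lowest in WT under ANS on the relative scale. Since all 41 genes carry the motif, its presence cannot separate the 2 ends of that order. The matches are from RefSeq's R64 genome, 5′ to 3′ on the coding strand, with the motif in capitals. The 5 highest genes are these.
MRPL24, chrXIII:650856-650885, plus strand: tggttttccccTGTATATAaaaaagcatat
MRPL24, chrXIII:650880-650909, plus strand: gcatatctgttTGTACATAtgtaggtatgc
MRPL32, chrIII:119206-119235, plus strand: aaacttaagccTGTATATAgaaacttaatt
MRPS5, chrII:722314-722339, plus strand: aatactaTGTACATAcacacgcacca
MRPS5, chrII:722372-722401, plus strand: ataataataccTGTAAATAtctcaacatac
MRPS17, chrXIII:636217-636246, minus strand: gcactacactcTGTAAATAtatacaactac
MRPL16, chrII:146900-146929, plus strand: ccatgtatacaTGTATATAactattgaaaa
The 5 lowest genes are these, with the first match of each.
MRPL39, chrXIII:251207-251236, minus strand: ttcatttatccTGTAAATAagtaatggata
MRPS18, chrXIV:58860-58889, plus strand: atatatattcgTGTAAATAattcgattttt
MRPL31, chrXI:185225-185254, minus strand: aaaatttcatcTGTATATAgtttaatcatt
MRPL13, chrXI:450358-450387, minus strand: ttttaatatccTGTACATAtatatactctt
MRPL7, chrIV:937564-937593, plus strand: cccattcgtcaTGTAAATAtataaactgta

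**Figure D1:**
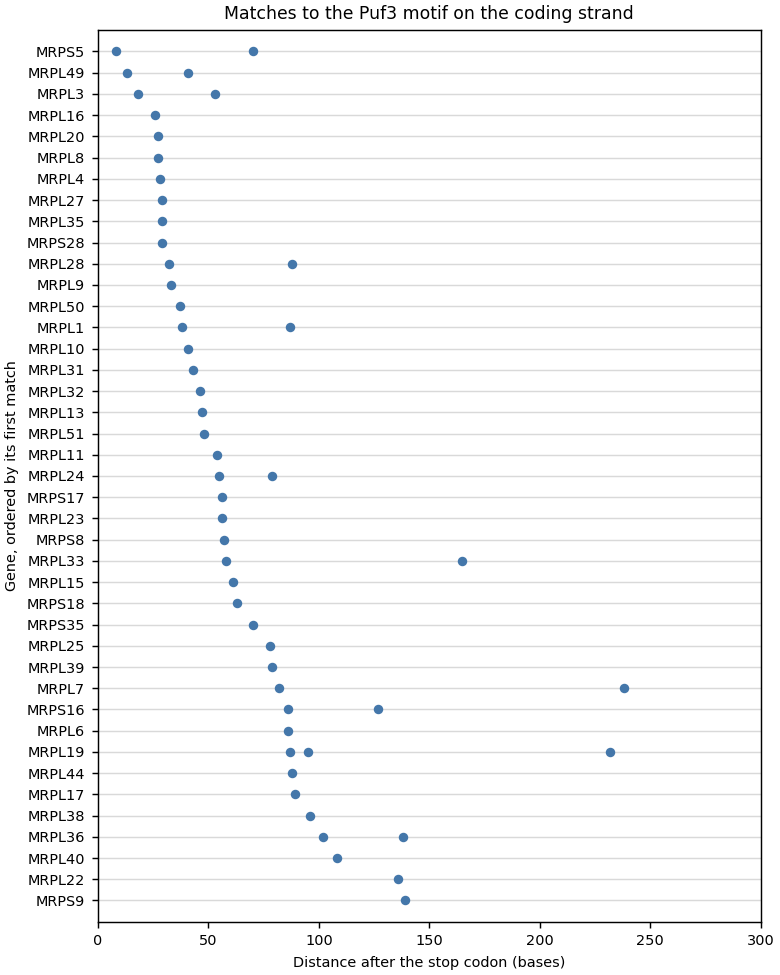
Position of each match to TGTANATA after the stop codon (x axis, bases) in the 41 genes (y axis, ordered by the first match), 1 point per match. The first match lies 8 to 139 bases after the stop codon, and 11 genes have more than 1.

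The PUF3 gene itself (YLL013C) had densities of 0.156 and 0.162 with DMSO and 0.335 and 0.454 with ANS in WT, and 0.137 and 0.128 with DMSO and 0.388 and 0.373 with ANS in upf1. As deposited it rose with ANS in both genotypes. On the relative scale it fell by 0.41 ± 0.08 (log2, SE) in WT under ANS (adjusted p = 0.00418 by limma) and by 0.51 ± 0.08 in upf1 against WT in DMSO (adjusted p = 0.00202). The summed-density scale gave 0.28 for ANS in WT, the opposite direction, and -0.21 for upf1 in DMSO (adjusted p = 0.12).

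The mRNAs of the 41 genes lay mostly in the upper part of the range of protein-coding genes. Their mean densities spanned 5.35-fold and lay at percentiles 23.4 to 82.3 of protein-coding genes, with a median percentile of 61.8, and 36 of 41 lay above the protein-coding median. Densities are per counted length, which allows levels to be set side by side between genes, with a limit. In 40 of the 41 genes the counted length was greater than the coding length, while in MRPL39 the 2 were equal. How this bears on the order of levels was not tested. The highest was MRPL39 (YML009C, R64 chromosome XIII, 251304 to 251516), the shortest coding sequence of the set with 213 nt, which encodes the bL33 homologue. Its densities were 0.713 and 0.667 with DMSO and 1.09 and 1.34 with ANS in WT, and 0.598 and 0.661 with DMSO and 1.16 and 1.26 with ANS in upf1. MRPL36 (YBR122C), the bL31 homologue, had 0.389 and 0.424 with DMSO and 1.34 and 1.44 with ANS in WT, and 0.466 and 0.418 with DMSO and 1.55 and 1.35 with ANS in upf1. MRPL39 was thus the highest of the set in all 4 DMSO libraries and MRPL36 in all 4 ANS libraries. Next by mean density over the 8 libraries came MRPL33 with 0.730 and MRPL49 with 0.716, the uL30 and bL21 homologues. At the low end stood MRPL4 (YLR439W), the uL29 homologue, with 0.0849 and 0.0657 with DMSO and 0.235 and 0.378 with ANS in WT, and 0.0560 and 0.0653 with DMSO and 0.245 and 0.268 with ANS in upf1. Above it came MRPL19 with a mean density of 0.267, MRPL40 with 0.308 and MRPL8 with 0.329, the homologues of uL11, uL24 and bL17.

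As a group, the genes held different places among mRNAs in the 4 conditions. Their median density was 1.51 and 1.55 times that of protein-coding genes with DMSO and 1.44 and 1.36 times with ANS in WT, and 1.15 and 1.14 times with DMSO and 1.31 and 1.31 times with ANS in upf1. Both WT DMSO libraries lay highest and both upf1 DMSO libraries lowest, with no overlap between any 2 groups. Their summed density was 0.253 and 0.262% of that of all protein-coding genes with DMSO and 0.405 and 0.379% with ANS in WT, and 0.253 and 0.244% with DMSO and 0.407 and 0.384% with ANS in upf1. By this share the ANS libraries lay above the DMSO libraries in both genotypes, and the genotypes overlapped both in DMSO and under ANS. Scaled to that sum, 4956 of 5861 protein-coding genes lay higher with ANS in WT, so a higher share there is not particular to the set. The median change in WT was 0.73 (log2) for the 41 genes and 0.75 for protein-coding genes, and in upf1 0.73 and 0.46.

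**Figure D2:**
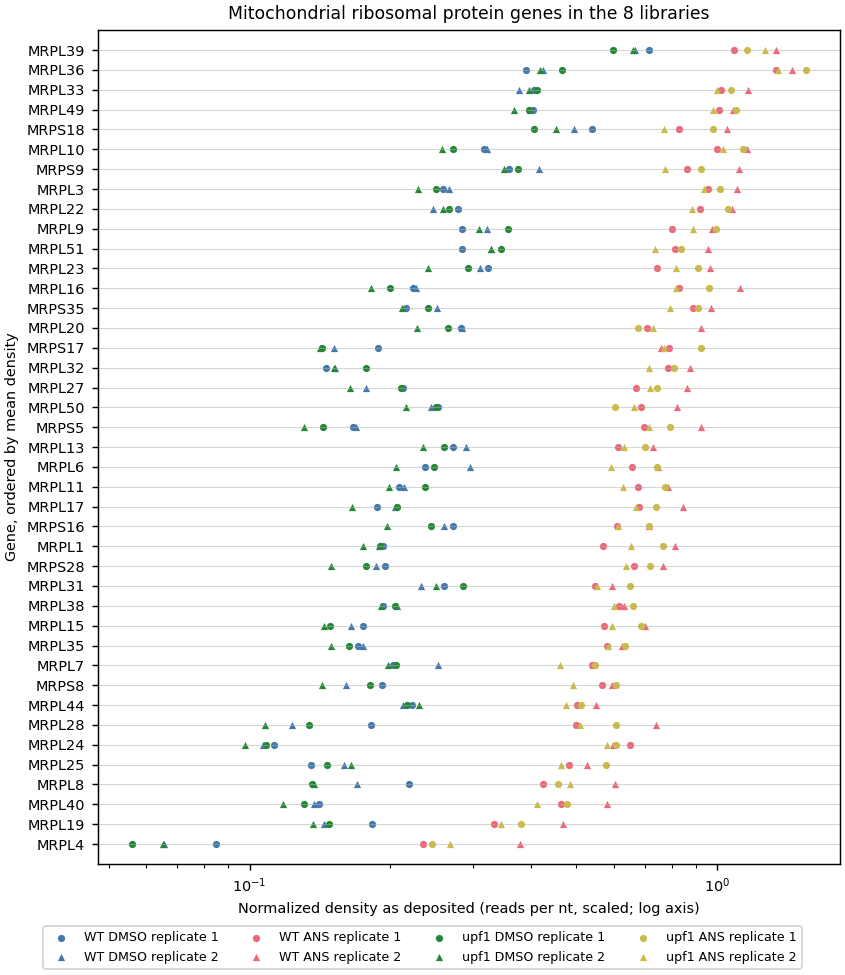
Normalized density as deposited (x axis, reads per nucleotide, scaled, log axis) of each of the 41 genes (y axis, ordered by mean density) in the 8 libraries, 1 point per library. Every gene lies higher in its 2 ANS libraries than in its 2 DMSO libraries of either genotype, on a scale on which 95.2% of protein-coding genes rose in WT.

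In WT cells under ANS, all 41 genes rose on the deposited scale (adjusted p below 0.05, limma), beside 95.2% of protein-coding genes that rose and 0.171% that fell. Their median rise was 1.74 (log2) against 1.72 for protein-coding genes, so that as a set they moved with the bulk of mRNAs. Within the set the response differed between genes, from 0.80 ± 0.15 (SE) for MRPL39 to 2.47 ± 0.15 for MRPL24. On the relative scale 8 rose and 12 fell, with a median of 0.05 and a range from -0.90 to 0.79, beside 33.5% of protein-coding genes that rose and 29.8% that fell. By summed density 34 rose and 0 fell (70.7 and 8.07% of protein-coding genes), and MRPL39 and MRPS18 were the 2 genes below 0, so that the sign of the other relative falls depends on the scale. Without WT ANS replicate 1 the relative scale had 4 rises, without either upf1 ANS library 5, and with no variance trend 4.

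MRPL24 (YMR193W, R64 chromosome XIII, 650036 to 650812), the bL28 homologue, had the largest relative rise. It went from 0.113 and 0.107 with DMSO to 0.650 and 0.599 with ANS, a relative change of 0.79 ± 0.14 (log2, SE, adjusted p = 0.00306). MRPL32 (YCR003W, chromosome III, 118620 to 119171) encodes the bL32 homologue, whose processing by the m-AAA protease is known to precede mitoribosome assembly in yeast. It went from 0.146 and 0.152 to 0.784 and 0.875, a relative rise of 0.76 ± 0.09 (adjusted p = 3.77e-04). Its ANS libraries lay above its DMSO libraries on each scale, as did those of MRPL24. MRPS5 (YBR251W, chromosome II, 721390 to 722313), the uS5 homologue of the small subunit, went from 0.166 and 0.169 to 0.697 and 0.922, or 0.54 ± 0.07 (adjusted p = 4.93e-04). MRPS17 (YMR188C), the uS17 homologue, rose by 0.48 ± 0.16 (adjusted p = 0.033), and MRPL16 (YBL038W), the uL16 homologue near the peptidyl transferase centre, by 0.39 ± 0.07 (adjusted p = 0.00311). The other rises were MRPS35 with 0.29 ± 0.10, MRPL3 with 0.26 ± 0.07 and MRPL17 with 0.24 ± 0.09, all 3 specific to mitochondria. All 8 also rose by summed density.

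MRPL39 lay at the other end. Its relative change was -0.90 ± 0.12 (adjusted p = 6.59e-04), while its deposited density rose 1.74-fold in WT and the summed-density scale gave -0.21 (adjusted p = 0.09). MRPS18 (YNL306W, chromosome XIV, 58155 to 58808), the uS11 homologue of the small subunit's platform, had densities of 0.538 and 0.493 in WT DMSO and 0.827 and 1.05 in WT ANS. Its relative change was -0.85 ± 0.11 (adjusted p = 7.49e-04), against -0.16 by summed density (adjusted p = 0.24). These 2 genes were among the 5 of highest mean density. MRPL31 (YKL138C), specific to mitochondria, MRPL13 (YKR006C), the same, and MRPL7 (YDR237W), the uL5 homologue, had relative changes of -0.49 ± 0.10, -0.46 ± 0.07 and -0.45 ± 0.14, which passed the test, and 0.20, 0.23 and 0.24 by summed density, which did not. MRPL44, MRPL19, MRPS16, MRPS9, MRPL49, MRPL23 and MRPL33 were the other relative falls, from -0.43 to -0.23, and all of them rose as deposited and lay above 0 by summed density, from 0.26 to 0.46.

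The upf1 cells answered ANS with nearly the same order of genes. All 41 rose as deposited, with a median of 1.72 (log2), beside 94.8% of protein-coding genes that rose and 0.119% that fell. On the relative scale 17 rose and 6 fell, with a median of 0.25, beside 24.2 and 27.1% of protein-coding genes, and by summed density 34 rose and 0 fell (55.4 and 7.71%). The count of relative falls was 3 without upf1 DMSO replicate 1, 0 without upf1 DMSO replicate 2 and 1 without either upf1 ANS library. MRPS17 led, with densities of 0.143 and 0.141 with DMSO and 0.922 and 0.768 with ANS and a relative rise of 1.07 ± 0.16 (adjusted p = 0.00185). MRPL24 rose by 1.03 ± 0.14, MRPS5 by 0.96 ± 0.07, MRPL16 by 0.72 ± 0.07 and MRPL32 by 0.71 ± 0.09. The other 12 rises, from MRPL40 with 0.34 to MRPL28 with 0.71, included MRPL3 and MRPL15, whose proteins are both related to RNase III, with 0.53 and 0.63. MRPL39 again had the lowest relative change, -0.54 ± 0.12 (adjusted p = 0.0102), and MRPS18 the next, -0.47 ± 0.11 (adjusted p = 0.0168). MRPL44, MRPL31, MRPS9 and MRPL51 had -0.34, -0.32, -0.27 and -0.26 and passed the test on the relative scale, while as deposited they rose and by summed density MRPL44, MRPL31 and MRPS9 stood at 0.14, 0.17 and 0.22.

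Both ANS comparisons share no library but take their spread from 1 fit of all 8 libraries. They gave 8 genes that rose in each on the relative scale and 5 that fell in each. None went up in one and down in the other, and 11 were called in neither. Taken singly, 33.5% of protein-coding genes rose and 29.8% fell in WT, and 24.2 and 27.1% in upf1. Genes called in both were not counted over all protein-coding genes, so these counts are not read as a trait of the set. The 8 were MRPL3, MRPL16, MRPL17, MRPL24, MRPL32, MRPS5, MRPS17 and MRPS35, and the 5 were MRPL31, MRPL39, MRPL44, MRPS9 and MRPS18. Across the 41 genes the 2 sets of relative changes correlated with r = 0.921 (Spearman 0.919), and across all 5861 protein-coding genes with r = 0.782 (0.756). These are descriptions across genes, which share libraries and are not independent replicates.

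**Figure D3:**
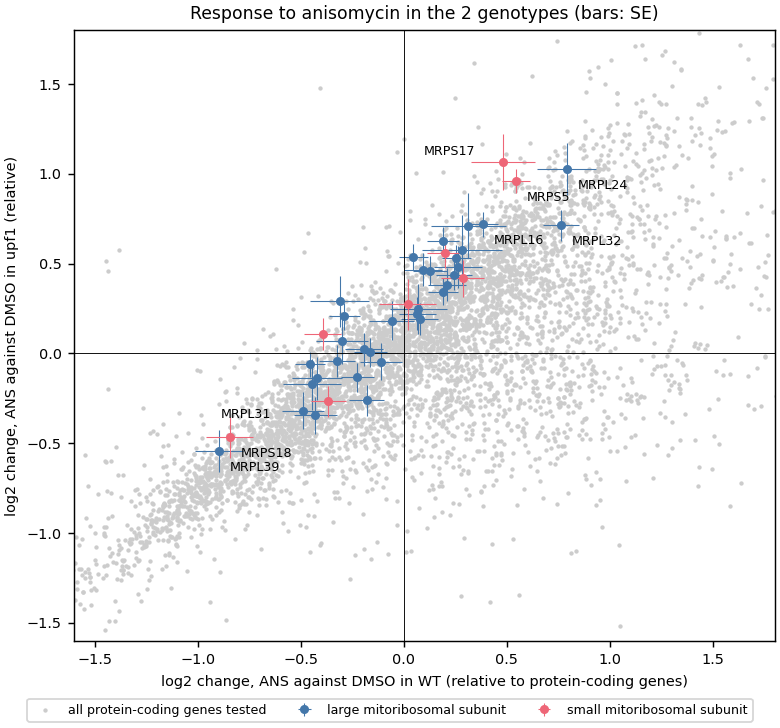
Relative log2 change with ANS in WT (x axis) and in upf1 (y axis) for the 41 genes, with bars for the SE, and for all protein-coding genes in grey, genes beyond the axes not being drawn. MRPL39 and MRPS18 lie lowest in both genotypes. MRPL24, MRPL32, MRPS5, MRPS17 and MRPL16 lie highest in both, in a different order. As deposited all 41 genes rose in both, and by summed density 34 rose and 0 fell in each.

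The changes were also read by the number of Puf3 matches, without a test of the difference. The 11 genes with 2 or 3 matches had a median relative change of 0.07 with ANS in WT and ranged from -0.45 to 0.79, with 3 rises and 5 falls. The 30 genes with 1 match had a median of 0.03 and ranged from -0.90 to 0.76, with 5 rises and 7 falls. With ANS in upf1 the 11 genes had 5 rises and 0 falls and ranged from -0.17 to 1.03 (median 0.22), and the 30 genes had 12 rises and 6 falls and ranged from -0.54 to 1.07 (median 0.26). Of protein-coding genes 24.2% rose and 27.1% fell there. In upf1 against WT in DMSO 8 of the 11 genes and 17 of the 30 fell, with a median of -0.38 in each, beside 29.7% of protein-coding genes. By summed density none of the 41 fell with ANS in either genotype, and 1 fell in upf1 in DMSO. With ANS in WT the 920 other tested genes with the motif had 292 relative rises (31.7%) and 296 falls (32.2%), beside 34.0 and 29.3% of the 4898 genes without it. By summed density, again with ANS in WT, there were 664 rises and 66 falls with the motif and 3446 and 407 without it.

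In DMSO the upf1 cells had lower levels of these mRNAs relative to protein-coding genes. All 41 relative changes lay below 0, from -0.74 to -0.10 with a median of -0.38, and 25 fell (61.0%), beside 29.7% of protein-coding genes that fell, 21.7% that rose and their median of -0.13. None of the 41 rose on this scale. In 38 of 41 genes both upf1 libraries lay below both WT libraries on this scale, against 49.1% of protein-coding genes. The count depends on the scale. As deposited 0 rose and 0 fell by limma (1 at an unadjusted p below 0.05), with a median of -0.13 and 31 genes below 0 (23.1% of protein-coding genes rose and 0.768% fell, with a median of 0.10), and by summed density 1 fell and 0 rose, with a median of -0.08 (2.70% fell and 33.3% rose, with a median of 0.15). The median of the 41 genes lay below that of protein-coding genes. Each scale divides a library by 1 factor for all genes. The gap between these medians is therefore nearly the same on each scale and counts as 1 observation. Without either of the upf1 DMSO libraries 14 genes fell on the relative scale.

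MRPL8 (YJL063C, R64 chromosome X, 315759 to 316475), the bL17 homologue, had the largest difference, with densities of 0.219 and 0.170 in WT and 0.136 and 0.137 in upf1. Its relative change was -0.74 ± 0.14 (log2, SE, adjusted p = 0.00526), and it was the gene that fell by summed density (-0.44, adjusted p = 0.026). MRPL28 (YDR462W), specific to mitochondria, had a relative change of -0.56 ± 0.18 (adjusted p = 0.0393) with 0.182 and 0.123 in WT and 0.134 and 0.108 in upf1, densities that overlapped as deposited. MRPL4 had -0.54 ± 0.19, which missed the threshold (adjusted p = 0.0539). MRPS5 had the smallest adjusted p of the 41, 7.08e-04, for a relative change of -0.54 ± 0.07, with 0.166 and 0.169 in WT and 0.144 and 0.131 in upf1. At the other end MRPL32 had 0.146 and 0.152 in WT and 0.178 and 0.152 in upf1, a relative change of -0.10 ± 0.09 (adjusted p = 0.358) that was 0.14 as deposited and 0.19 by summed density. MRPL9 and MRPL51 had relative changes of -0.12 ± 0.08 each (adjusted p = 0.267 and 0.297), and both lay above 0 on the other scales.

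The level of a gene moved with its change in upf1 over all protein-coding genes, the more abundant ones lying lower on the relative scale. The 41 genes were therefore set beside genes of like density, in 10 bins of about 586 genes by rising mean density. In bin 6 the median change was -0.10 for all genes and -0.37 for 11 of the 41, of which 6 fell against 25.1% of the bin. In bin 7 it was -0.17 for all genes and -0.43 for 15 of the 41, of which 10 fell against 38.1% of the bin. In bin 8 it was -0.21 for all genes and -0.33 for 8 of the 41, of which 5 fell against 43.5%. The other 7 genes were spread over bins 3, 4, 5 and 9. In bin 9 the 2 genes had a median of -0.256 against -0.260 for the bin, and 1 fell against 53.6%. These counts depend on the scale, and as deposited 0 of the 41 fell in bins 6, 7 and 8. The deposited medians there were -0.12, -0.18 and -0.08, against 0.14, 0.07 and 0.04 for all genes of the bins. Within the 41 genes the relative change and log2 mean density correlated with r = 0.279, against -0.335 over all protein-coding genes.

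Under ANS no difference between the genotypes passed the test. On the relative scale 0 of the 41 genes rose and 0 fell (0 at an unadjusted p below 0.05 as deposited), beside 5.02% of protein-coding genes that rose and 3.65% that fell, and their median was -0.11. As deposited 1.66% of protein-coding genes rose and 0.341% fell, and by summed density, again with 0 of the 41 called, 8.26 and 1.09%. The lowest changes were those of MRPL50 with -0.27 ± 0.10, MRPL40 with -0.25 ± 0.07 and MRPL4 with -0.24 ± 0.19. The highest were those of MRPL31 with 0.04 ± 0.10, MRPL9 with 0.05 ± 0.08 and MRPS17 with 0.09 ± 0.16. On the relative scale both upf1 libraries lay below both WT libraries in 16 of the 41 genes, beside 34.3% of protein-coding genes. They lay above in 1, beside 25.5%. As deposited they lay below in 1 of the 41 genes, beside 11.7%, and above in 0, beside 20.5%.

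**Figure D4:**
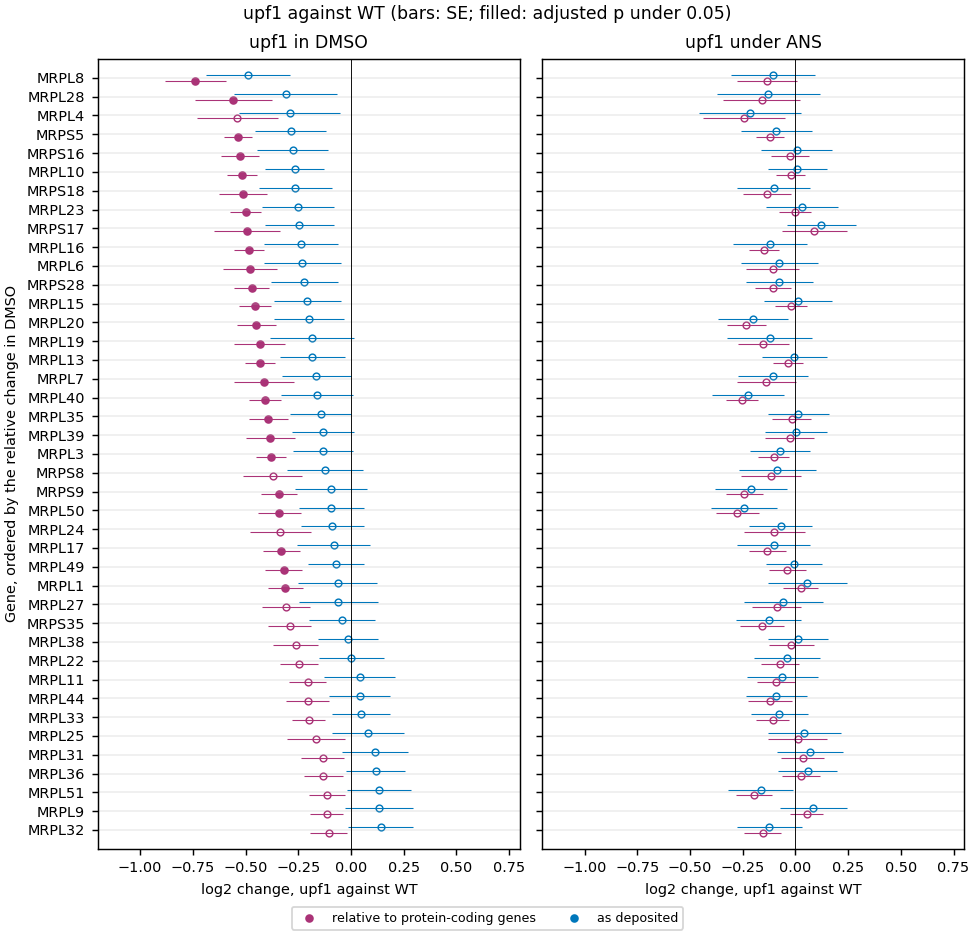
Log2 change in upf1 against WT (x axis) of the 41 genes (y axis, ordered by the relative change in DMSO), in DMSO and under ANS, relative to protein-coding genes and as deposited, with bars for the SE and filled points for an adjusted p below 0.05. On the relative scale 25 of 41 fell in DMSO and none under ANS, while as deposited none passed the test in either medium.

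The ANS response in upf1 minus that in WT, an interaction term, was above 0 for 39 of 41 genes on the relative scale, with a median of 0.28 against 0.06 for protein-coding genes. It passed the test in 6 genes, all above 0 (14.6%), beside 1.04% of protein-coding genes above 0 and 8.92% below. This term is the difference between genotypes under ANS minus that in DMSO and so shares its libraries with both. As deposited 0 of the 41 passed by limma (0 at an unadjusted p below 0.05), beside 0.0512% of protein-coding genes above 0 and 6.35% below. By summed density 26 of the 41 genes lay above 0 and 15 below, with a median of 0.07 against -0.14 for protein-coding genes. On that scale 0 passed, beside 0.136 and 13.3%. MRPL23 (YOR150W), the uL13 homologue, is an example. Its densities were 0.324 and 0.311 with DMSO and 0.741 and 0.963 with ANS in WT, and 0.293 and 0.241 with DMSO and 0.910 and 0.817 with ANS in upf1. Its relative response was -0.29 ± 0.08 in WT and 0.21 ± 0.08 in upf1 (adjusted p = 0.0691), a difference of 0.50 ± 0.11 (adjusted p = 0.0276). Larger estimates for MRPL8 (0.60 ± 0.20, adjusted p = 0.11) and MRPS17 (0.58 ± 0.22, adjusted p = 0.146) did not pass, and MRPL51 (-0.08) and MRPL32 (-0.05) were the 2 genes below 0, with MRPL50 (0.07) next. The 6 calls fell to 4 without WT DMSO replicate 2, to 1 without WT ANS replicate 1 or upf1 DMSO replicate 1, and to 0 without each of the other 5 libraries in turn.

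Genes of both subunits took part in these patterns. Of 33 large-subunit genes 5 rose and 9 fell with ANS in WT on the relative scale, 13 rose and 4 fell with ANS in upf1, and 19 fell in upf1 against WT in DMSO. Of 8 small-subunit genes 3 rose and 3 fell, 4 rose and 2 fell, and 6 fell. The median changes in upf1 in DMSO were -0.34 and -0.48. By ancestry, 28 genes encode homologues of bacterial ribosomal proteins and 13 encode proteins specific to mitochondria. Of the former 5 rose and 9 fell with ANS in WT and 18 fell in upf1 in DMSO, and of the latter 3 rose and 3 fell and 7 fell. The differences between these subsets were not tested. Of protein-coding genes 33.5% rose and 29.8% fell with ANS in WT and 24.2 and 27.1% with ANS in upf1, and 29.7% fell in upf1 in DMSO. By summed density 27 large-subunit and 7 small-subunit genes rose with ANS in WT and none fell. In upf1 in DMSO that scale gave 1 large-subunit and 0 small-subunit falls, with medians of -0.04 and -0.18. By ancestry it gave 1 fall among the bacterial homologues and 0 among the genes specific to mitochondria.

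The rest of the mitochondrial translation apparatus was read from lists chosen by name. The 36 other mitoribosomal protein genes, of which 35 carry the Puf3 motif, had 4 relative rises and 15 falls with ANS in WT (median -0.18), 9 and 2 with ANS in upf1 (0.09), and 0 and 19 in upf1 in DMSO (-0.35). By summed density they had 23 rises and 0 falls with ANS in WT and 2 falls in upf1 in DMSO. YML6 (YML025C), the uL4 homologue, rose by 0.81 ± 0.07 with ANS in WT and 0.93 ± 0.07 in upf1, with 0.165 and 0.182 in WT DMSO against 0.885 and 1.12 in WT ANS. MRPL37 and MNP1, the bL12 homologue, had relative changes of -0.81 ± 0.13 and -0.50 ± 0.08 with ANS in WT, and -0.65 ± 0.13 and -0.55 ± 0.08 in upf1 in DMSO. Their deposited densities rose with ANS. By summed density the changes with ANS in WT were -0.12 for MRPL37 (adjusted p = 0.385) and 0.19 for MNP1 (adjusted p = 0.0742), and those in upf1 in DMSO -0.35 (adjusted p = 0.0519) and -0.25 (adjusted p = 0.0457).

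VAR1 (Q0140), the one ribosomal protein gene of the mitochondrial genome, had densities of 0.0239 and 0.0300 in WT DMSO and 0.0120 and 0.0186 in WT ANS, from 9 to 52 reads per library. It fell on all 3 scales with ANS in WT, by 0.71 as deposited, 2.16 ± 0.26 relative and 1.57 by summed density. It thus lay lower under ANS while the 41 nuclear genes lay higher as deposited. How libraries depleted of ribosomal RNA sample mitochondrial transcripts was not tested.

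Genes that serve the mitoribosome without being part of it gave mixed counts. Of 9 mitochondrial translation factors 1 rose and 3 fell with ANS in WT on the relative scale, led by TUF1 (-0.93 ± 0.07), the elongation factor Tu, and MEF2 (-1.34 ± 0.14), a homologue of elongation factor G, both also below 0 by summed density. Of 17 translational activators of mitochondrial mRNAs 7 rose and 3 fell, led by ATP22 (1.38 ± 0.08), which acts on ATP6. ATP22 and AEP1, which acts on ATP9, also rose in upf1 in DMSO, by 0.69 ± 0.08 and 1.13 ± 0.10. Of 7 mitoribosome assembly genes 3 rose and 1 fell with ANS in WT and 3 rose and 2 fell in upf1 in DMSO (3 and 0 by summed density). Among them MRM2 (YGL136C), a methyltransferase of the large ribosomal RNA, rose by 1.40 ± 0.09 and 0.90 ± 0.09, with densities of 0.0734 and 0.0699 with DMSO and 0.578 and 0.682 with ANS in WT, and 0.173 and 0.148 with DMSO in upf1. Of 13 mitochondrial tRNA synthetase genes, all of which carry the Puf3 motif, 4 rose and 1 fell with ANS in WT, and 1 rose and 0 fell in upf1 in DMSO (5 and 0 by summed density). By summed density the rises and falls with ANS in WT were 6 and 2 for the translation factors, 12 and 0 for the activators, 6 and 0 for the assembly genes and 12 and 0 for the tRNA synthetases. Of the mitochondrial RNA polymerase genes RPO41 had a relative change of -0.57 ± 0.09 with ANS in WT but 0.11 by summed density (adjusted p = 0.383), and MTF1 rose by 0.50 ± 0.10 and 1.18.

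The 41 genes were set against the mRNAs of the cytosolic ribosome and of the respiratory chain. Of 138 cytosolic ribosomal protein genes 4 rose and 128 fell with ANS in WT on the relative scale, and of 33 nuclear respiratory chain and ATP synthase genes 0 rose and 24 fell, with ATP3 (-1.03 ± 0.06) and ATP1 (-1.17 ± 0.09) among them. By summed density these counts were 13 and 68, and 10 and 4, beside 34 and 0 for the 41 genes. In upf1 in DMSO 106 cytosolic ribosomal protein genes and 8 respiratory chain genes fell on the relative scale, with medians of -0.35 and -0.18. By summed density 4 and 0 fell, and 8 of each list rose. The differences between these lists were not tested.

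**Figure D5:**
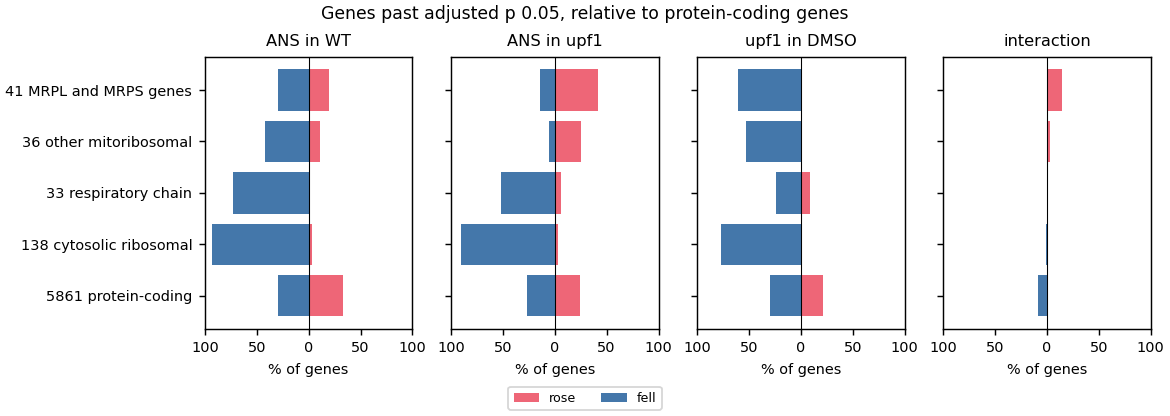
Share of genes (x axis, %) that rose or fell at an adjusted p below 0.05 relative to protein-coding genes, for the 41 genes and 4 comparison sets (y axis), in 4 panels by comparison. In upf1 in DMSO 61.0% of the 41 genes fell against 29.7% of protein-coding genes, a scale-dependent count that was 0 as deposited and 1 gene by summed density. The share that fell also lay above that of protein-coding genes in the other mitoribosomal set. In the cytosolic ribosomal set it was higher than in the 41 genes. With ANS in WT 8 of the 41 genes rose and 12 fell on this scale, and all 41 rose as deposited.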

How the data were processed

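Per the labels, total RNA with spike-in RNA (not used here) was depleted of ribosomal RNA and sequenced from stranded libraries. Per the submitters' processing notes, the tools were HISAT2 2.2.0, DESeq2, featureCounts 2.0.0 and Trim Galore, with build R64 and no roles given. The deposited values are normalized densities, a signal in scaled reads per nucleotide, and their basis is not stated. Whole reads, recovered for 99.9% of features, were used for depth only. Values were put on a log2(density + 0.003397) scale, with the 5th percentile of all values over 0 added, and fitted with limma 3.58.1 (R 4.3.3). Of 11966 features 11579 had a mean at or above it. The model had 1 mean per group over 8 libraries, a variance trend and 4 residual degrees of freedom, with Benjamini-Hochberg adjustment at 0.05 over all features in each of 5 comparisons. Fold changes of low genes are understated. It was tested on simulated data. Replicates with the same number deviated together in no regular way (correlations from -0.24 to 0.38), so that no block was used. Motifs were searched in the R64 genome of RefSeq with Python 3.11.15. The genes and lists were chosen with earlier results of these data known. Named genes are the 4 highest and 4 lowest levels, the 5 largest and smallest relative changes with ANS and the 3 largest and smallest elsewhere, up to 3 called genes per list by adjusted p, and NAM7, VAR1 and PUF3. Alternatives covered the pseudocount, filter, trend, block, groups fitted, scale and each library left out.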

Additional observations from a re-analysis of the deposited data

Results flagged for a closer look

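In 6 genes the ANS response in upf1 differed from that in WT by the test of the difference itself, relative to protein-coding genes (limma, interaction term, adjusted p below 0.05). The difference was 0.49 (log2) for MRPL10 (adjusted p = 0.0232), the uL15 homologue, and 0.50 for MRPL23 (adjusted p = 0.0276). It was 0.41 for MRPS5 (adjusted p = 0.0337), 0.44 for MRPL15 (adjusted p = 0.0456), 0.40 for MRPL13 (adjusted p = 0.0484) and 0.50 for MRPS16 (adjusted p = 0.049), the bS16 homologue. MRPL10 had densities of 0.316 and 0.321 with DMSO and 0.999 and 1.15 with ANS in WT, and 0.272 and 0.258 with DMSO and 1.13 and 1.03 with ANS in upf1. As deposited and on the relative scale its upf1 libraries lay below its WT libraries in DMSO and overlapped them under ANS. The same holds for the other 5 genes, except MRPS5, whose upf1 libraries also lay below under ANS on the relative scale. None of the 6 passed as deposited or by summed density.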

How the results depend on the processing

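All 41 genes rose with ANS as deposited in both genotypes under every alternative run. Rescaled by summed density, on the relative counts, 34 rose and 0 fell with ANS in WT, 34 rose and 0 fell with ANS in upf1, 1 fell in upf1 in DMSO and 0 passed in the interaction. Values then reversed with ANS in WT for MRPL31 (0.20), MRPL13 (0.23) and MRPL7 (0.24), with ANS in upf1 for MRPS18 (0.021), MRPL44 (0.14), MRPL31 (0.17) and MRPS9 (0.22), in upf1 in DMSO for MRPL51 (0.19), MRPL9 (0.19) and MRPL32 (0.19), and in the interaction for MRPL50 (-0.14). With no variance trend 4 rose with ANS in WT, 2 fell with ANS in upf1 and 0 passed in the interaction. With only the 2 groups compared 4 rose with ANS in WT. With a smaller pseudocount 3 fell with ANS in upf1. With only protein-coding features tested 1 fell in upf1 in DMSO as deposited. Replicates with the same number deviated together in no regular way (correlations from -0.24 to 0.38), which does not settle whether they were paired. With the replicate block 3 fell and 18 rose with ANS in upf1, and 6 rose and 11 fell with ANS in WT. The block gave 25 falls in upf1 in DMSO and 4 calls in the interaction. Leaving out 1 library gave 4 to 8 rises and 8 to 12 falls with ANS in WT, 12 to 18 rises and 0 to 6 falls with ANS in upf1, 14 to 27 falls in upf1 in DMSO (0 to 1 as deposited) and 0 to 4 in the interaction. It reversed some small values. In upf1 under ANS MRPL31 ran from -0.078 to 0.15 (below 0 without WT ANS 2 and, at -0.01, without upf1 ANS 1) and MRPS17 from -0.11 to 0.29 (below 0 without WT ANS 2). In the interaction MRPL51 ran from -0.18 to 0.016, MRPL32 from -0.14 to 0.046 (0.0022 without upf1 DMSO 1) and MRPL50 from -0.070 to 0.20. The mean of log2 in place of the median gave levels of 1.57 times the protein-coding median in WT DMSO and 1.17 times in upf1 DMSO. Of the other values for named genes 551 kept direction and side of the threshold, 105 lost the call and 3 gained it. The cause of these changes was not tested. Each gene had 91 reads or more in each library, and how depth bears on the calls was not tested.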

Other observations

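The windows of 300 bases before the start codons of the 41 genes were searched on both strands for promoter elements that the comparisons do not use. TTACCCG, the core of the site of Reb1, a general regulatory factor, lay in 6 of 41 genes (14.6%) against 7.97% of all genes. CCAAT, the core of the site of the Hap complex that acts on respiratory genes, lay in 13 (31.7%) against 41.8%. TATAAA lay in 18 (43.9%) against 48.3%, AATTTT in 16 (39.0%) against 54.3% and the Abf1 motif in 6 (14.6%) against 11.5%. AATTTT and CCAAT can overlap. Among these motifs none was as common in the set as TGTANATA after the stop codon.

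Across the 41 genes the relative change with ANS in WT was higher for longer coding sequences (r = 0.447, Spearman 0.424, n = 41), whereas across all protein-coding genes it was not related to length (r = -0.02, Spearman 0.04, n = 5861). MRPL39, which has the shortest coding sequence and the lowest change, is one of these points. With mean density the correlation was -0.245 in the set and -0.406 over all protein-coding genes. These are descriptions across genes that share libraries.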
